A study of Homo sapiens with 6 samples.

Results

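The kinetochore and spindle checkpoint genes described here are a list of 44 human genes chosen by name, from centromeric chromatin out to the checkpoint kinases. The list was chosen with earlier results of these data known. Shares of members set beside shares of all genes below therefore describe the list and do not test it. Of these, 42 had a row of their own among the 18417 genes with such a row. CENPA and PMF1 did not, because their only rows also carry a second gene symbol, and they have no value below. CENPJ is annotated under its current symbol, CPAP. SKA2 had 2 rows, and its brighter one was used; both gave a log2 change of -0.01 in the main comparison.

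Total RNA was profiled on 6 Affymetrix arrays from RD18, an established line of embryonal rhabdomyosarcoma, a tumour with features of immature skeletal muscle. RD18 NpBI-22 cells (miR-22 cells below) express the microRNA miR-22 under doxycycline. They were measured as 2 induced replicates, given 1 µg/ml doxycycline for 6 days, and 2 non-induced replicates, given none. RD18 NpBI-206AS cells were additional controls, with 1 induced array under the same doxycycline and 1 non-induced array. What the NpBI-206AS construct makes once induced, and whether either line is 1 clone, is not stated in the labels. Values are log2 expression, so that a log2 difference of -1 is a halving.

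MIR22HG, the host gene of miR-22, checked the labels: it read 10.02 and 10.01 in induced miR-22 cultures, against 6.27 and 6.72 in non-induced ones, and 6.32 in induced against 6.41 in non-induced NpBI-206AS cells (log2 change in miR-22 cells 3.53, SE 0.197, limma adjusted p = 0.014). The muscle markers MYOD1, MYOG, DES and CDH15 were above the arrays' lower quartile (3.92 to 4.01) on all 6 arrays, and MYF6 too, while MYF5 lay under it on 5. DES, the muscle intermediate filament, was the 1 of these 6 markers that passed in the main comparison: it read 8.35 and 8.05 in induced miR-22 cultures, against 9.24 and 9.30 in non-induced ones (log2 change -1.07, adjusted p = 0.038). Its part in the results below was not tested. Among 8 measured markers of blood, endothelial, epithelial, glial and liver cells, PTPRC, EPCAM and ALB lay under the lower quartile on every array. PECAM1 lay under it on 2 arrays, and CD3E, CDH5, CDH1 and GFAP (5.42 to 5.85) on none. Lying above the lower quartile thus did not by itself set muscle markers apart from the rest. In the main comparison 0 of the 8 passed in limma (1 lower at an unadjusted p under 0.05, beside 9.12% of all genes). The code of each array has a prefix whose meaning the labels do not give. The induced miR-22 arrays share the prefix R715 with no other array, while non-induced replicate 1 has R509 and the remaining 3 arrays R587. What the prefix stands for and induction therefore cannot be told apart in any comparison of the induced miR-22 arrays.

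The kinetochore is the protein machine that assembles on each centromere and holds the chromosome to spindle microtubules. Its inner layer sits on nucleosomes that carry the histone variant CENP-A, its outer layer grips microtubules, and a fibrous corona captures them from the side. Kinetochores without microtubules make the spindle checkpoint signal, which holds back the anaphase-promoting complex until all chromosomes are attached. Many of the genes are transcribed mainly in G2 and mitosis, so their summed mRNA in a culture also follows the share of dividing cells. In tumour cells such as rhabdomyosarcoma, faulty attachment and checkpoint signalling are known sources of unequal chromosome segregation.

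The induced agent and 3 promoters of genes that fell are shown. The mature miR-22 strands are given with bases 2 to 8, the seed that pairs with target mRNAs, in capitals. They lie on the minus strand at chr17:1713914-1713935 (3p) and chr17:1713952-1713973 (5p) of GRCh38.p14, from RefSeq.
hsa-miR-22-3p: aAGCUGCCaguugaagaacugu
hsa-miR-22-5p: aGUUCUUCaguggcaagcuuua
The promoters are those of NUF2, CENPF and SKA3, the only genes that fell in the main comparison whose RefSeq promoter holds TTTGAA or TTCGAA. These are forms of the cell cycle homology region, an element known from genes of G2 and mitosis. Each sequence runs from 100 bases before the gene's start to 25 after it. Capitals mark, on either strand, TTTGAA and CCAAT, the core of the site bound by NF-Y. NUF2 lies at chr1:163321854-163321978 (plus strand), CENPF at chr1:214603095-214603219 (plus strand) and SKA3 at chr13:21176528-21176652 (minus strand).
NUF2: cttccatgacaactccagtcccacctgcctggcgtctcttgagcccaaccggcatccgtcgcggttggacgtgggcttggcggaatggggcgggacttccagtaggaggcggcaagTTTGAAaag
CENPF: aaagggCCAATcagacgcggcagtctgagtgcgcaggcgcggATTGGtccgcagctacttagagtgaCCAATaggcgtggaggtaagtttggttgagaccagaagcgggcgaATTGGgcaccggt
SKA3: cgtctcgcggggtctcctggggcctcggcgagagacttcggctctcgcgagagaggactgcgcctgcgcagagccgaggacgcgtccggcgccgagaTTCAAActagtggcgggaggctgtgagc
The TTTGAA of CENPF lies beyond the printed stretch, at bases 291 to 296 of the 300-base promoter window, whose first 250 bases precede the start.

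The main comparison asked which genes differ in miR-22 cells once miR-22 is induced. CENPE, SPC24, NUF2, CENPF, CENPI and SKA3 fell, with log2 changes of -1.06 (SKA3) to -2.42 (CENPE), and no member rose. These 6 of 42 members are 14.3%, beside 1.53% of all genes that fell and 1.73% that rose (limma, adjusted p under 0.05 over all rows). A fall in the RNA of a culture cannot tell fewer cells in G2 and mitosis from less RNA per such cell. The log2 change was below 0 in 34 of 42 members, beside 48.9% of all genes, with a median of -0.40 over the members and 0.01 over all genes. Both induced arrays lay below both non-induced arrays in 29 members (69% of them, beside 24.5% of all genes), and above both in 1 (beside 27.9% of all genes). A halving or more was measured in 8 members (beside 1.7% of all genes) and a doubling in none (beside 2.15%).

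Precision was limited by the 4 arrays of this comparison. With any 1 of them left out, a group is a lone array, assumed to vary like the remaining pair, and limma called 0 members and 0 rows of the whole table. Since no row passed, the lost calls say nothing about the stability of single members. With all arrays, 20 members were lower at an unadjusted p under 0.05 (beside 9.12% of all genes). In the fits with 1 array left out, the members' median lay between -0.36 and -0.46. The log2 change ran from -2.10 to -2.74 for CENPE, from -1.66 to -2.38 for SPC24 and from -1.29 to -1.78 for NUF2. It ran from -1.18 to -1.90 for CENPF, from -1.02 to -1.11 for CENPI and from -1 to -1.12 for SKA3.

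**Figure D1:**
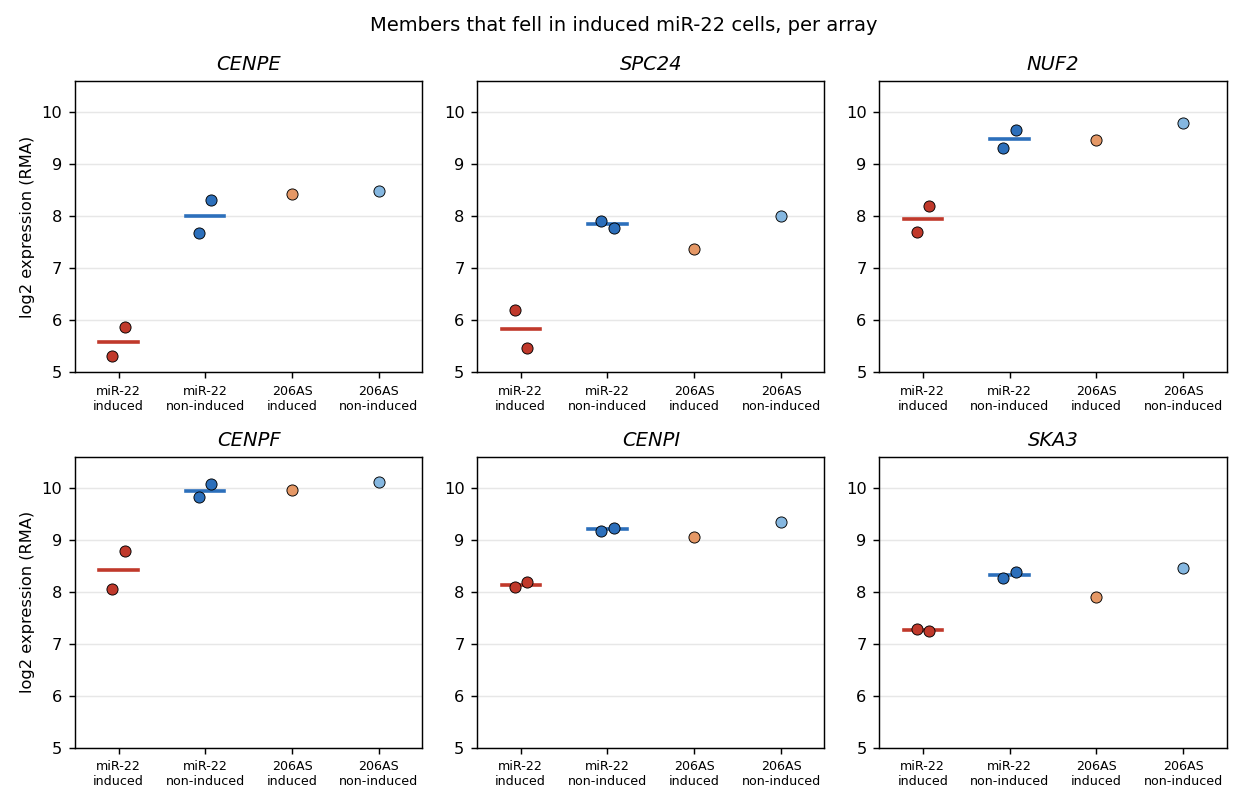
Log2 expression of the 6 members that fell in the main comparison, 1 panel per gene, with 1 point per array and a bar for the mean of 2 replicates. In every panel both induced miR-22 points lie below all 4 other points, and the induced NpBI-206AS point lies below the non-induced one by 0.05 (CENPE) to 0.63 (SPC24).

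The corona and its motor held the largest fall. CENPE is a kinesin that carries chromosomes to the spindle equator. It read 5.30 and 5.87 in induced miR-22 cultures against 7.68 and 8.32 in non-induced ones, and 8.43 in induced against 8.48 in non-induced NpBI-206AS cells. The fall was 5.34-fold (log2 change -2.42, SE 0.293, limma adjusted p = 0.025), and the induced miR-22 arrays stood more than a log2 unit below every other array. CENPF, a very long coiled-coil protein of the corona, read 8.05 and 8.78 against 9.83 and 10.07, and 9.96 against 10.12 in NpBI-206AS cells. Its log2 change was -1.54 (SE 0.27, adjusted p = 0.047), and the arrays of the groups did not overlap. The call is close to the threshold: it did not pass with each array centred on its median (log2 change -1.47). Nor did it pass with the mean of a gene's rows, where its log2 change stayed at -1.54. ZWILCH and ZW10, subunits of the complex that brings dynein and checkpoint proteins to the corona, did not pass (-0.33 and -0.22, adjusted p = 0.48 each).

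In the outer kinetochore, 2 of 9 measured genes fell, both of the NDC80 complex, the main microtubule coupler. SPC24, in the part that anchors the complex to the inner kinetochore, read 6.19 and 5.46 in induced miR-22 cultures against 7.91 and 7.78 in non-induced ones, and 7.37 in induced against 8 in non-induced NpBI-206AS cells. Its log2 change was -2.02 (SE 0.262, adjusted p = 0.027), a 4.05-fold fall. NUF2, in the part that touches the microtubule, read 7.70 and 8.20 against 9.31 and 9.66, and 9.46 against 9.80 in NpBI-206AS cells. It fell 2.9-fold (log2 change -1.54, SE 0.231, adjusted p = 0.035).

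The direct partners of these subunits did not pass. SPC25, the partner of SPC24, read 8.26 and 8.22 in induced miR-22 cultures against 8.90 and 8.91 in non-induced ones, and 8.37 in induced against 8.88 in non-induced NpBI-206AS cells. Its log2 change was -0.66 (SE 0.145, adjusted p = 0.071), and the induced NpBI-206AS array lay closer to the induced miR-22 arrays than to the rest. NDC80, the partner of NUF2, read 8.15 and 8.35 against 8.50 and 8.70, and 8.47 against 8.76 in NpBI-206AS cells, a log2 change of -0.35 (SE 0.166, adjusted p = 0.30). The 4 subunits thus ran from -0.35 to -2.02; whether they differ from each other was not tested.

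KNL1, the scaffold on which checkpoint proteins dock, read 7.93 and 8.55 in induced miR-22 cultures against 9.12 and 9.15 in non-induced ones, and 9.07 in induced against 9.21 in non-induced NpBI-206AS cells (log2 change -0.89, adjusted p = 0.10). ZWINT, which binds KNL1, read 8.24 and 8.08 against 8.71 and 9.09, and 8.87 against 9.10 in NpBI-206AS cells (-0.74, adjusted p = 0.098). For both genes the induced miR-22 arrays lay below all 4 others without passing in the main comparison. The MIS12 complex joins the inner to the outer layer. Its genes DSN1, MIS12 and NSL1 had log2 changes of -0.48, -0.31 and 0.05, none of which passed.

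**Figure D2:**
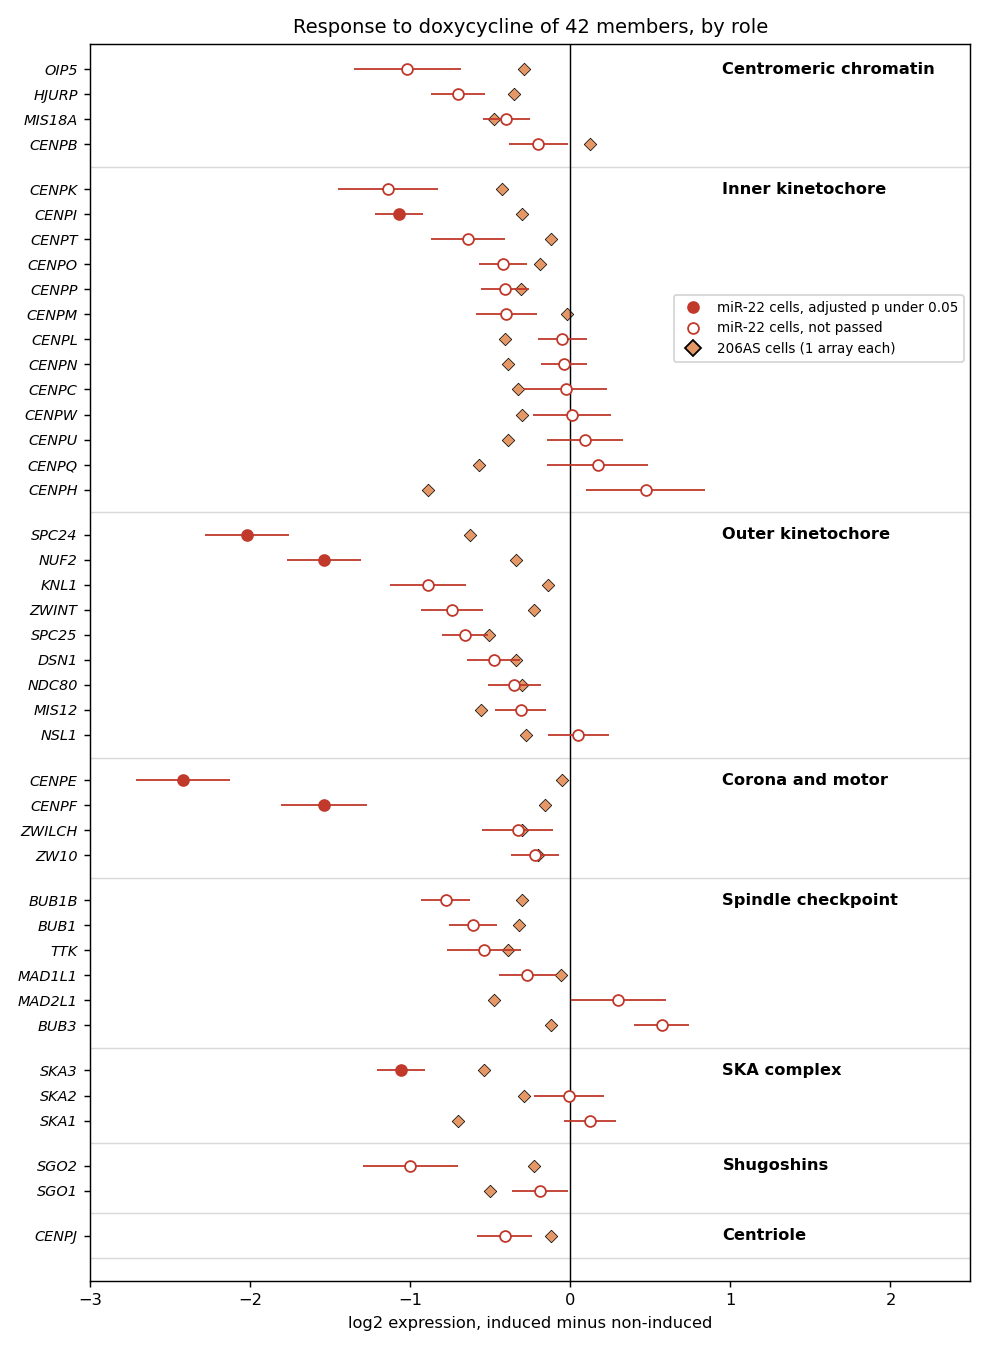
Log2 expression of induced minus non-induced cells for the 42 measured members, grouped by role: circles are miR-22 cells with bars of 1 standard error (filled where adjusted p was under 0.05), diamonds are NpBI-206AS cells with 1 array per condition and no error. Filled circles run from -1.06 (SKA3) to -2.42 (CENPE), while 41 of 42 diamonds lie between -0.89 and 0.

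In the inner kinetochore network 1 of 13 genes fell, with a median log2 change of -0.05. CENPI read 8.09 and 8.18 in induced miR-22 cultures against 9.18 and 9.23 in non-induced ones, and 9.05 in induced against 9.35 in non-induced NpBI-206AS cells. Its fall was 2.1-fold (log2 change -1.07, SE 0.148, adjusted p = 0.029), with replicates that differed by less than 0.1. CENPI works in 1 subcomplex with CENPH, CENPK and CENPM, which did not pass; whether their log2 changes differ from that of CENPI was not tested. CENPK read 7.40 and 7.98 against 8.46 and 9.19, and 8.86 against 9.29 in NpBI-206AS cells (log2 change -1.14, SE 0.313, adjusted p = 0.11). CENPH read 6.21 and 6.21 in induced miR-22 cultures against 5.16 and 6.32 in non-induced ones, and 6.06 in induced against 6.95 in non-induced NpBI-206AS cells. The non-induced CENPH arrays thus stood 1.16 apart, more than its log2 change of 0.47 (SE 0.374, adjusted p = 0.55), and its groups overlapped. CENPM was at -0.40 (adjusted p = 0.30).

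The other 9 inner kinetochore genes did not pass. CENPC, which links CENP-A nucleosomes to the outer layer, was at -0.03, and CENPL and CENPN, which also contact those nucleosomes, at -0.05 and -0.04. CENPO, CENPP, CENPQ and CENPU, of another subcomplex, were at -0.42, -0.41, 0.17 and 0.09. The histone-fold genes CENPT and CENPW were at -0.64 and 0.01.

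Of 4 measured genes of centromeric chromatin, 0 passed in limma and 3 were lower at an unadjusted p under 0.05 (beside 9.12% of all genes). OIP5 and MIS18A belong to the complex that licenses new CENP-A. OIP5 read 6.6 and 6.58 in induced miR-22 cultures against 7.10 and 8.11 in non-induced ones, and 7.58 in induced against 7.87 in non-induced NpBI-206AS cells. Its non-induced replicates differed by 1.01, as much as its log2 change of -1.02 (SE 0.334, adjusted p = 0.16), although the groups did not overlap. HJURP, the chaperone that deposits CENP-A, read 9.02 and 8.81 against 9.71 and 9.52, and 9.24 against 9.59 in NpBI-206AS cells (-0.70, SE 0.168, adjusted p = 0.085). MIS18A was at -0.40 and CENPB, which binds a motif in centromeric repeats, at -0.20; neither passed.

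None of the 6 checkpoint genes proper passed in limma. At an unadjusted p under 0.05, 2 were lower (beside 9.12% of all genes) and 1 higher (beside 12.1%). BUB1B, part of the complex that inhibits the anaphase-promoting complex, read 8.56 and 8.72 in induced miR-22 cultures against 9.38 and 9.46 in non-induced ones, and 9.10 in induced against 9.40 in non-induced NpBI-206AS cells (log2 change -0.78, SE 0.154, adjusted p = 0.059). It passed after quantile normalization was applied again (-0.83). The kinase BUB1 read 9.06 and 9.19 against 9.75 and 9.72, and 9.45 against 9.77 in NpBI-206AS cells (-0.61, SE 0.15, adjusted p = 0.09). For both, the induced NpBI-206AS array lay between the induced miR-22 arrays and the rest.

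BUB3, the shared partner of BUB1 and BUB1B, lay the other way. It read 11.60 and 11.61 in induced miR-22 cultures against 10.87 and 11.20 in non-induced ones, and 11.33 in induced against 11.45 in non-induced NpBI-206AS cells. It was the only member with both induced arrays above all 4 others (beside 22.1% of all genes), at a log2 change of 0.57 (SE 0.174, adjusted p = 0.14) that did not pass. TTK, the kinase that starts the signal, was at -0.54, MAD1L1 at -0.27 and MAD2L1, its partner and the part of the signal that binds CDC20, at 0.30. None of these passed, and the non-induced arrays of MAD2L1 differed by 0.84.

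**Figure D3:**
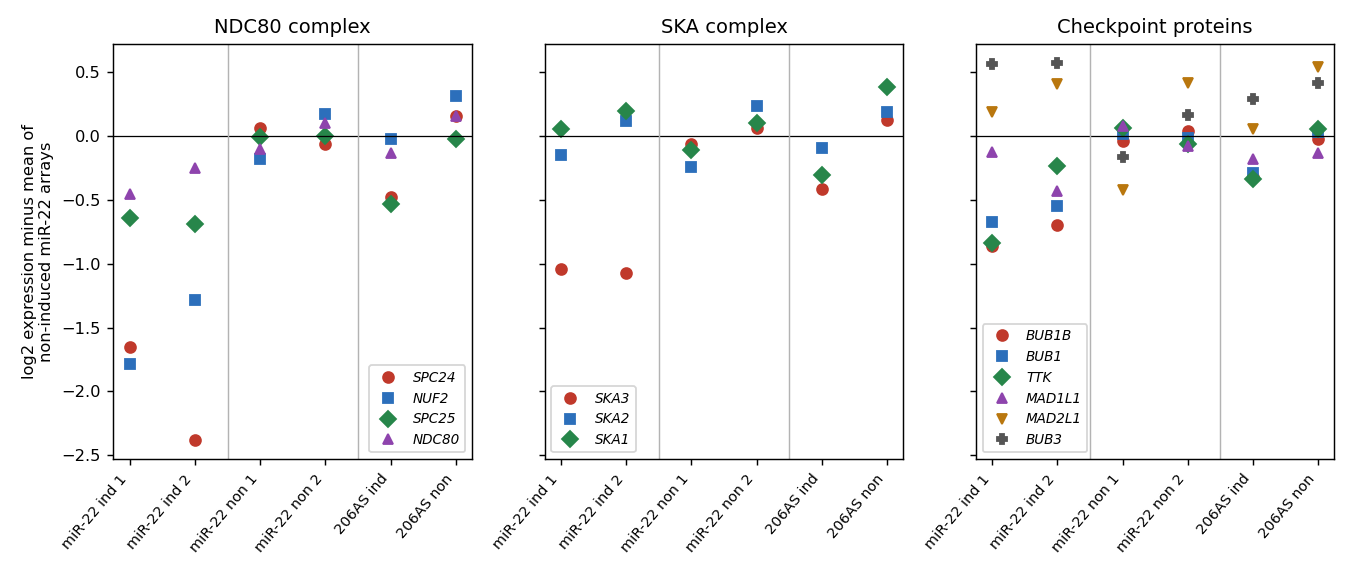
Log2 expression on each of the 6 arrays minus the mean of the 2 non-induced miR-22 arrays, for subunits of the NDC80 complex, the SKA complex and the checkpoint proteins. SPC24, NUF2 and SKA3 stand at least 1 below 0 on both induced miR-22 arrays, while NDC80, SKA1, SKA2 and MAD1L1 stay within 0.5 of 0 there and BUB3 lies above 0.

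The SKA complex helps kinetochores follow shrinking microtubules, and 1 of its 3 genes fell. SKA3 read 7.28 and 7.25 in induced miR-22 cultures against 8.26 and 8.39 in non-induced ones, and 7.91 in induced against 8.45 in non-induced NpBI-206AS cells. Its log2 change was -1.06 (SE 0.15, adjusted p = 0.031). SKA1 read 7.59 and 7.73 against 7.43 and 7.64, and 7.23 against 7.92 in NpBI-206AS cells, so that its miR-22 groups overlapped (0.12, adjusted p = 0.73) and its lowest array was the induced NpBI-206AS one. SGO2, which with SGO1 guards cohesin at centromeres, read 7.01 and 7.66 in induced miR-22 cultures against 8.05 and 8.63 in non-induced ones, and 8.34 in induced against 8.57 in non-induced NpBI-206AS cells (-1, SE 0.297, adjusted p = 0.13). SGO1 read 8.11 and 8.42 against 8.44 and 8.47, and 8.23 against 8.73 in NpBI-206AS cells (-0.19, adjusted p = 0.61). CENPJ, which despite its name builds centrioles, read 6.66 and 6.94 against 7.13 and 7.28, and 7.06 against 7.18 in NpBI-206AS cells (-0.41, adjusted p = 0.25).

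In a second comparison, all 4 remaining arrays, which mix lines and doxycycline, served as the baseline for both arrays of induced miR-22 cells. It shares arrays with the main comparison. Here 14 members fell and none rose (33.3% of the members, beside 6.31% of all genes that fell and 7.78% that rose). They were the 6 named above and CENPK (log2 change -1.26, SE 0.261, limma adjusted p = 0.02), OIP5 (-1.08, adjusted p = 0.032), SGO2 (-1.06, adjusted p = 0.022), KNL1 (-0.89, adjusted p = 0.016), ZWINT (-0.78, adjusted p = 0.014), BUB1B (-0.69, adjusted p = 0.017), HJURP (-0.60, adjusted p = 0.041) and BUB1 (-0.55, adjusted p = 0.034). At an unadjusted p under 0.05, 23 were lower and 1 higher (beside 12.9% and 15.7% of all genes). The members' median was -0.36, beside 0.03 for all genes. Both induced miR-22 arrays lay below all 4 others in 24 members, 57.1% of them, beside 17.2% of all genes.

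The count fell to 5 without induced replicate 1, to 7 without induced replicate 2 and to 8 without non-induced replicate 2. CENPE, SPC24, NUF2, CENPF and CENPI passed with each of the 6 arrays left out in turn. The same 5 were the ones called with the array code prefix as a random block. Since no other array has the prefix of the induced miR-22 arrays, that fit cannot separate the prefix from induction. Calls over the whole table changed along with these counts: 1466 rows were lower without non-induced replicate 2 and 899 with the block. They were 1666 beside 13 members without the induced NpBI-206AS array, and 3980 beside 16 members without non-induced replicate 1. CENPE was 6.26-fold lower in this comparison (-2.65, SE 0.259, adjusted p = 0.0016) and CENPI 2.09-fold (-1.06, SE 0.123, adjusted p = 0.0027).

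Doxycycline in NpBI-206AS cells was described with 1 array per condition and no test. The induced array lay below the non-induced one in 41 of 42 members (97.6%, beside 48.5% of all genes), and CENPB was the exception at 0.12. The shift was small: the median was -0.30, beside 0 for all genes, and no member was halved (beside 0.0652% of all genes). CENPH (-0.89), SKA1 (-0.70) and SPC24 (-0.63) differed most. Both NpBI-206AS arrays carry the prefix R587, as does non-induced miR-22 replicate 2. Between these untreated cultures, non-induced NpBI-206AS cells minus that replicate, the members' median was 0.10, with 11 of 42 below 0 (26.2%, beside 49.9% of all genes).

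The members' differences were spread more widely in miR-22 cells, over 2.99 log2 units (SD over members 0.62), than in NpBI-206AS cells, over 1 (SD 0.19). Those SDs are not on equal terms, since the first rests on means of 2 arrays and the second on single arrays. The miR-22 difference also runs across array code prefixes, while both NpBI-206AS arrays carry the same prefix. All genes were spread more widely too. In miR-22 cells 313 of them were halved or more and 396 doubled or more, beside 12 and 8 in NpBI-206AS cells. Across the 42 members the differences in both lines had a Pearson r of -0.19. The points share their arrays, and genes are not independent replicates. The 36 members that did not pass in miR-22 cells had medians of -0.34 there and -0.30 in NpBI-206AS cells. That split was made on miR-22 cells alone, where the median over all 42 was -0.40. Those medians are therefore not on equal terms, and whether these members respond alike in both lines was not tested. CENPE showed the widest gap between the lines, at -2.42 in miR-22 and -0.05 in NpBI-206AS cells.

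**Figure D4:**
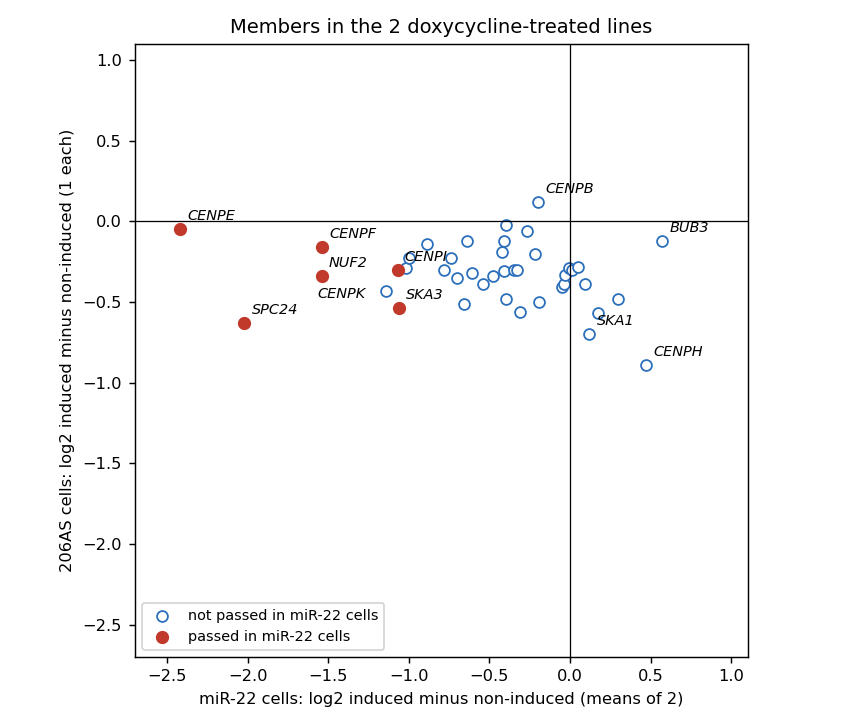
Difference of induced minus non-induced log2 expression in miR-22 cells (horizontal, means of 2 arrays) and in NpBI-206AS cells (vertical, single arrays) for 42 members, on equal scales. The cloud is stretched along the horizontal axis, from -2.42 to 0.57, and lies almost wholly between -0.89 and 0 on the vertical one.

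Where doxycycline was the same on both sides, induced miR-22 against induced NpBI-206AS cells, limma called 0 members at an adjusted p under 0.05, beside 0.076% of all genes lower and 0.168% higher. The single NpBI-206AS array was assumed to vary like the miR-22 groups. At an unadjusted p under 0.05, 10 members were lower (23.8%, beside 6.93% of all genes) and none higher (beside 7.82%). The median was -0.19, beside 0.04 for all genes. The 6 genes of the main comparison lay at -0.65 (SKA3) to -2.85 (CENPE), with adjusted p from 0.055 to 0.19. They were picked on the same induced miR-22 arrays, so these values are not separate support. Without the dimmest 50 percent of rows, which leaves fewer tests to adjust for, CENPE, CENPF, NUF2 and SPC24 passed. The share of all genes called under that setting is not given, so these calls cannot be told from a general rise in calls.

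Whether the response of miR-22 cells differs from that of NpBI-206AS cells was tested as an interaction. Limma called 0 members and 0 genes, with 5 members lower and 1 higher at an unadjusted p under 0.05 (beside 3.26% and 4.76% of all genes). The 5 were CENPE, SPC24, NUF2, CENPF and CENPI, all of which fell in the main comparison, whose arrays this test uses again. For CENPE the difference of responses was -2.37 (SE 0.507, adjusted p = 0.34) and for SPC24 -1.39 (SE 0.455, adjusted p = 0.49). SKA1 was the member on the higher side (0.82, SE 0.282, adjusted p = 0.50). The members' median was -0.15, beside -0.01 for all genes. A difference between the lines is therefore not shown for any single member at this number of arrays.

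Other genes of the pathway, from lists outside the 44, gave 4 falls and no rise in the main comparison among 35 measured of 37 (beside 1.53% of all genes that fell and 1.73% that rose). Of 9 other kinetochore genes, SPDL1, a dynein adaptor, fell by 1.06 (SE 0.179, adjusted p = 0.044). It read 8.30 and 8.65 in induced miR-22 cultures against 9.54 and 9.53 in non-induced ones, and 9.34 in induced against 9.73 in non-induced NpBI-206AS cells. NDEL1, a regulator of dynein, read 7.85 and 7.86 against 8.79 and 8.69, and 8.73 against 8.67 in NpBI-206AS cells, a fall of 0.89 (SE 0.148, adjusted p = 0.042). In both genes all 4 other arrays lay above the induced miR-22 arrays.

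Among 22 genes of the anaphase-promoting complex and its partners, the targets of the checkpoint, 2 fell, with a list median of -0.04. ESPL1, the separase that cuts cohesin, fell by 1.06 (SE 0.16, adjusted p = 0.035), and ANAPC1, the largest subunit of the complex, fell by 0.92 (SE 0.151, adjusted p = 0.041). ANAPC1 has near-identical pseudogene copies, and probe sequences were not used here. CDC26, a small subunit, had a log2 change of 1.08 (SE 0.306, adjusted p = 0.12). Against all 4 other arrays, 3 of the 22 fell and 4 rose (beside 6.31% and 7.78% of all genes). The risers were the subunits CDC26 (log2 change 0.93, limma adjusted p = 0.049), ANAPC11 (0.62, adjusted p = 0.018) and CDC16 (0.45, adjusted p = 0.032), and UBE2S (0.66, adjusted p = 0.038), which extends ubiquitin chains for the complex. Besides ESPL1 and ANAPC1, PTTG1, the securin that holds separase inactive, fell there (-0.47, adjusted p = 0.045). None of the 4 chromosomal passenger genes, which correct faulty attachments, passed in limma in the main comparison. There 2 were lower at an unadjusted p under 0.05 (beside 9.12% of all genes). AURKB, their kinase, was at -0.96 there (SE 0.239, adjusted p = 0.092) and fell against all 4 other arrays (log2 change -0.84, SE 0.198, adjusted p = 0.031).

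The promoters of 35 measured members were in the RefSeq table. Searched on both strands over the 300 bases, 18 of them (51.4%) held TTTGAA or TTCGAA, beside 16.6% of 27305 promoters, 1 per symbol and noncoding genes included. CCAAT was in 20 (57.1%, beside 35.7%), and both kinds were in 12 (34.3%, beside 6.58%). Among the 6 genes that fell in the main comparison, the first motif was in the 3 printed above (50%, beside 51.4% of the 35 members). It was in 8 of 13 that fell against all 4 other arrays (61.5%). CENPF and SPC24 held CCAAT, and CENPE and CENPI held neither. Members that did not pass in the main comparison held it too, NDC80, MAD2L1 and SKA1 among them. A match describes these letters only, and factor binding was not measured.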

How the data were processed

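The deposited table holds 33297 rows for 6 arrays, as the authors' log2 expression; RMA and Partek are named, without versions, per the submitters' processing notes. The genome build is not given in the sources consulted. RMA, as usually run, quantile-normalizes arrays, so a shift of all transcripts would not be seen. Rows were named by the platform annotation, with symbols updated through RefSeq genes (GRCh38.p14); a gene took its single-symbol row with the highest mean. Groups came from sample titles. The series calls the replicates biological.

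Tests used limma 3.58.1 in R 4.3.3, two-sided, adjusted by Benjamini-Hochberg over all rows at 0.05. A model with a mean per group had 2 residual and 3.62 prior degrees of freedom; induced miR-22 against 4 others had 4 and 3.57. Both were run on simulated arrays with independent rows, shifts larger than those of most members and no effect of the array code prefix. That check does not cover smaller shifts or the prefix.

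Members, lists, roles and motifs were chosen with earlier results of these data known. Full values are given for members that passed in either comparison (up to 12 by size in the second) and up to 2 per role with the largest change; SPC25, NDC80, CENPH and BUB3, and the members named by log2 change alone, were added after their values were seen. Promoters and microRNAs are from RefSeq tables (first start listed per symbol).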

Additional observations from a re-analysis of the deposited data

How the results depend on the processing

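For induced against non-induced miR-22 cells, the count of 6 members that fell became 0 when each miR-22 array was left out in turn (lowest 0, highest 0; no row of the table passed, and the lone array was assumed to vary like the remaining pair), and 13 without the dimmest 50 percent of rows. With the replicate number as a block (replicate block) it became 11; the labels do not say that the numbers pair cultures, and over 33297 rows the difference of replicate 1 minus 2 correlated between induced and non-induced cells at r = 0.196. Against the 4 other arrays, the count of 14 ran from 5 to 16 with 1 array left out and was 5 with the array code prefix as a random block, a model that could not be fitted for the main comparison. Against induced NpBI-206AS cells, 4 members passed in place of 0 without the dimmest 50 percent of rows. Calls over the whole table are not given for that setting. In the first 2 of these comparisons, calls over the whole table changed along with the counts of members. In the first, rows called lower were 1628 beside the 11 members and 1371 beside the 13 (brighter rows only). They were 669 with only the 4 miR-22 arrays. In the second they were 3980 without non-induced replicate 1 and 899 with the array code prefix as a random block. Whether the members changed apart from the table was not tested. The members' median difference of responses, -0.15, was -0.24 with quantile normalization applied again and -0.05 with each array centred on its median. The other counts and medians kept their direction and stayed within 1.5 times or within the spread of the median over pairs of arrays (SD 0.074) under the remaining settings. Over 14 named members, no log2 change in the first 2 comparisons changed sign; in the first, 26 member values under an alternative lost the call and 12 gained it, and in the second 39 lost it. The table has no detection calls, so background can be judged from log2 levels alone; no member lay under an array's lower quartile.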
